A study of Mus musculus with 4 samples.

Results

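E2F factors, the pocket proteins that bind them, and the transcription factors Foxm1 and Mybl2 were followed in livers that lack Cnot3, as the RNAs of 10 genes (E2f1, E2f2, E2f3, E2f7, E2f8, Rb1, Rbl1, Rbl2, Foxm1 and Mybl2). Members were taken as every probe set that names 1 of these symbols alone, which gave 24 of the 45037 probe sets of the value table, and 22 of the 24 passed the filter on low values (a value over the 20th percentile for that array, on any of the 4). One more probe set lists Foxm1 together with other genes and was not used (1 probe set). The samples were whole livers of C57BL/6 background mice 4 weeks after birth, 2 from Control mice labelled wild type and 2 from Cnot3KO mice, each measured on 1 Affymetrix mouse genome expression array. In the Cnot3KO mice floxed Cnot3, which encodes a subunit of the Ccr4-Not deadenylase, was deleted by Cre recombinase under the albumin promoter, so the cells that express albumin were targeted and other liver cells keep the gene. The study counted as controls mice with 1 or both floxed alleles and no Cre as well as Cre mice with at most 1 floxed allele, and which of these the 2 Control mice were, and the sex of each mouse, are not given in the sources used here.

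E2F factors bind DNA together with a DP partner. E2f1, E2f2 and E2f3 are the activating members, which switch on genes for the start of S phase, and E2f7 and E2f8 are atypical repressors that bind without a DP partner. The pocket proteins Rb (Rb1), p107 (Rbl1) and p130 (Rbl2) hold E2F factors in check until cyclin-dependent kinases phosphorylate them. In quiescent cells p130 with E2f4 and the MuvB core forms the DREAM repressor, whereas in cycling cells the MuvB core joins Mybl2 and then Foxm1 to switch on genes of mitosis. In the liver, E2f7 and E2f8 promote and E2f1 restrains the rise of hepatocyte ploidy after weaning.

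Levels are given as log2 of the RMA intensity of a probe set, and differences as Cnot3KO minus Control on the same log2 scale with the standard error (SE) from limma, n = 2 arrays per group and p adjusted over all probe sets that passed the filter. The brightest probe set by mean stands for a gene, and the others are given beside it. Nothing in the labels says that the 2 livers of a group came from separate litters, and every p measures only the spread between these arrays. In whole liver, fewer cells of a type and less RNA per cell cannot be told apart. Cnot3 itself read 5.99 and 6.04 in Control, against 5.15 and 5.30 in Cnot3KO livers, a fall of -0.79 ± 0.16 (adjusted p = 0.0372). The other Cnot3 probe set was at -0.40 ± 0.19 and did not pass (adjusted p = 0.218). The summed intensity of the 9 measured hepatocyte markers, which the brightest of them carry, was 63547 and 64182 in Control and 63012 and 64962 in Cnot3KO livers. Of the 9, Ass1 fell (-2.11 ± 0.25, adjusted p = 0.0106) and no other was called. Across probe sets the arrays correlated at 0.981 within Control, 0.989 within Cnot3KO and 0.937 to 0.948 between groups.

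Of the 10 genes only Rbl1 was called, as higher, at an adjusted p under 0.05, and no gene was called lower. Over all 16758 genes, 12.2% were called higher and 4.64% lower, so that 1 of 10 is close to the share of all genes. At an unadjusted p under 0.05 there were 2 genes higher, Rbl1 and E2f7, and 1 lower, Rbl2, where 22.9% and 12.4% of all genes lay. Both Cnot3KO arrays lay above both Control arrays for 5 genes (E2f1, E2f7, Rbl1, Foxm1 and Mybl2) and below them for 1 (Rbl2), against 34.8% and 30.3% of all genes. The median difference of the 10 genes was 0.22, beside 0.00 over all genes. Among the 22 probe sets, the 1 called was the main Rbl1 probe set, where 8.48% of all probe sets were called higher and 4.78% lower. Of the 22, 9 lay above without overlap and 3 below, against 26.9% and 35.9% of all probe sets.

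**Figure D1:**
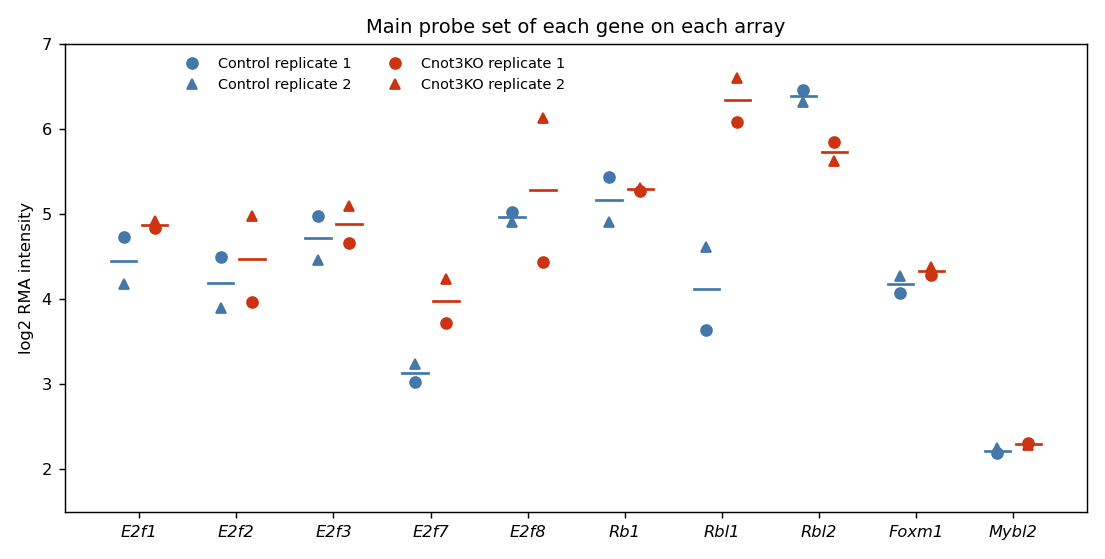
Log2 RMA intensity (y axis) of the main probe set of each gene (x axis) on the 2 Control (blue) and 2 Cnot3KO (red) arrays, with circles for replicate 1, triangles for replicate 2 and bars for group means. The Rbl1 values lie at 3.63 and 4.61 in Control and 6.08 and 6.60 in Cnot3KO, Rbl2 lies lower in both Cnot3KO livers, and the Cnot3KO values of E2f8 lie farthest apart; heights of different genes are not comparable.

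Promoter sequence was read for the members, since they are themselves known targets of E2F factors. RefSeq windows of 300 bases, from 250 before to 50 after the annotated start (build GRCm38.p6), were found for 8 of the 10 genes, in 10 windows. Foxm1 and Rb1 were not matched. Searched on both strands were 4 words of the E2F site, TTTCGCGC, TTTGGCGC, TTTCCCGC and TTTGCCGC, and the words TTTGAA and TTCGAA of the CHR element, which the MuvB core binds through Lin54. An E2F word stood in 4 of the 8 genes, Rbl1, E2f2, E2f3 and E2f7, while 2.26% of all 32851 windows and 2.60% of all genes with a window held one. A CHR word stood in 4 of 8, E2f2, E2f3, E2f8 and Rbl2, beside 21.7% of all genes. No matches overlapped each other. The stretches below hold every match that lay before the start, 30 bases each in the direction of the gene, with the matched word in capitals, and they are shown because Rbl1, the gene that was called, holds the E2F word TTTCGCGC 18 to 11 bases before its start (position -18 to -11), a word found in 0.323% of all windows.
Rbl1, chr2:157204535-157204564, minus strand: caagaaggcgatTTTCGCGCgctttgtcgc
E2f3, chr13:29986064-29986093, minus strand: aatatggTTTGAAaagccgGCGGGAAAtct
E2f7, chr10:110745230-110745259, plus strand: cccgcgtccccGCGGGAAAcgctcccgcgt
E2f8, chr7:48881597-48881626, minus strand: gcgggttaatTTCAAAtcgggggctggact
Rbl2, chr8:91069844-91069873, plus strand: ggtctttttctcTTCAAAcgagccttctga
E2f2, chr4:136180739-136180768, plus strand: atagcctgtgtgTTTGAAtggtgtggaaca
In E2f3 the CHR word and the E2F word (read on the opposite strand as TTTCCCGC) both lie within 30 bases of the start. The E2f2 E2F word, TTTGGCGC, lies after the start of its other window, from base 39 to base 46. E2f3, with both words, differed by 0.16 between the groups and Rbl1 by 2.22. Whether the words go with the size of a difference was not tested, and a match is not evidence of binding.

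Of the pocket proteins, Rbl1 was called higher, and Rbl2 and Rb1 were not called. Rbl1 encodes p107, the pocket protein that is low in resting and high in cycling cells. Its main probe set gave 3.63 and 4.61 in the 2 Control livers, whereas the 2 Cnot3KO livers gave 6.08 and 6.60. Both Cnot3KO livers were far above both Control livers, although the Control livers also differed from each other by 0.98. The rise of 2.22 ± 0.37 (adjusted p = 0.0218) is 4.65-fold, with a 95% interval from 2.43 to 8.87. The 3 other Rbl1 probe sets, of lower signal, did not pass. The strongest of them read 1.92 and 1.79 in Control, against 2.34 and 2.82 in Cnot3KO (0.73 ± 0.22, adjusted p = 0.0896), and the remaining 2 differed by 0.19 and 0.01. With the mean of its 4 probe sets Rbl1 was called at a smaller difference of 0.78 (adjusted p = 0.0478). With 1 array left out, a group holds a single liver, whose spread is taken to be that of the other group. Rbl1 no longer passed when Control replicate 1 was left out (1.73, adjusted p = 0.0606) or Cnot3KO replicate 2 was (1.96, adjusted p = 0.0559), and adjusted p ranged from 0.0171 to 0.255 over all alternatives.

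Rbl2 encodes p130, the pocket protein of resting cells. Its main probe set had the highest rank of all members in the arrays and read 6.46 and 6.31 in Control, against 5.85 and 5.62 in Cnot3KO. Both Cnot3KO livers lay below both Control livers, and each group was tight. The difference of -0.65 ± 0.18 did not pass (adjusted p = 0.0698, 95% interval -1.09 to -0.21). It was called after quantile normalization of the arrays again (-0.83, adjusted p = 0.0347). The other Rbl2 probe set read 5.04 and 5.04 against 4.83 and 4.87 (-0.19 ± 0.16, adjusted p = 0.452). Thus each of the 2 probe sets lay lower in both Cnot3KO livers, at different sizes.

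Rb1, the retinoblastoma gene itself, read 5.43 and 4.90 in Control, against 5.28 and 5.31 in Cnot3KO. The Cnot3KO values fell between the Control values. The difference of 0.13 ± 0.22 (adjusted p = 0.736) had a 95% interval from -0.44 to 0.69, so changes over 1.61-fold upward lie outside it. The other Rb1 probe set, with values from 0.94 to 1.31, did not pass the filter on low values.

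**Figure D2:**
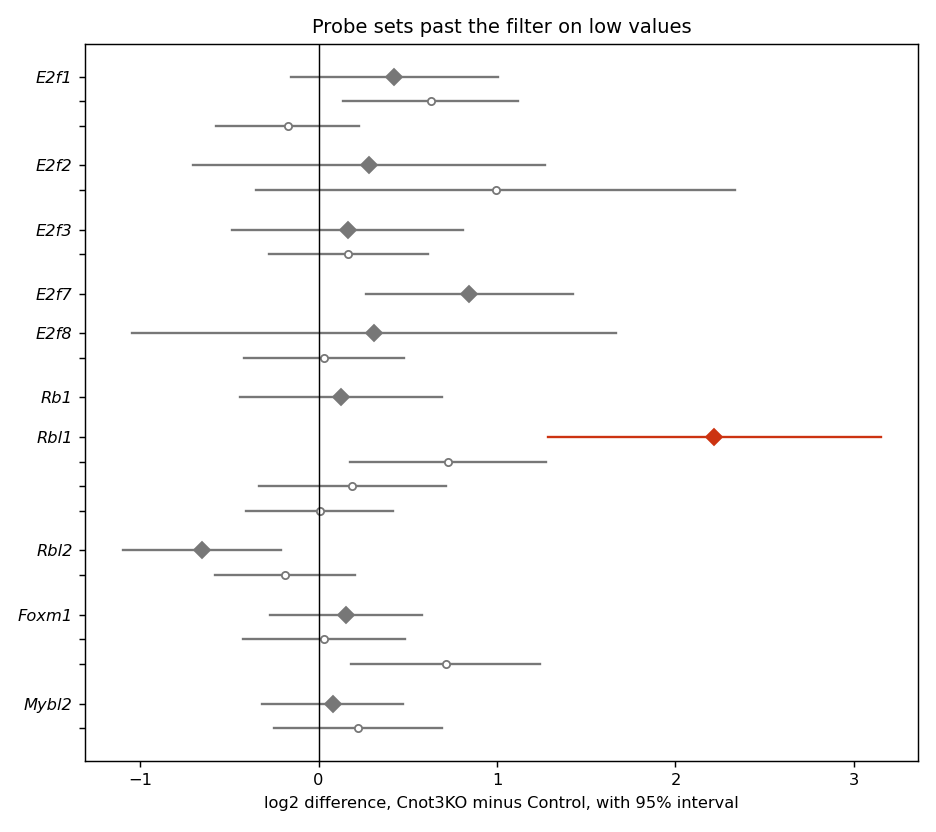
Cnot3KO minus Control log2 difference (x axis) with its 95% interval for the 22 probe sets past the filter, grouped by gene (y axis). Filled diamonds are main probe sets, open circles the others, and red marks the 1 called probe set (Rbl1, 2.22); all other main probe sets lie between -0.65 and 0.84.

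None of the activating E2F genes was called. E2f1, the founding member, which can drive resting cells into S phase, read 4.73 and 4.17 in Control, against 4.83 and 4.91 in Cnot3KO. The groups did not overlap, but the lower Cnot3KO value was only just above the higher Control value, and the difference of 0.42 ± 0.23 did not pass (adjusted p = 0.274). Another E2f1 probe set read 3.57 and 3.87 against 4.23 and 4.47 (0.63 ± 0.19, adjusted p = 0.0963), and the third, of low signal, was at -0.17. E2f2 read 4.50 and 3.89 in Control, against 3.97 and 4.98 in Cnot3KO, so the groups overlapped (0.28 ± 0.39, adjusted p = 0.662). Its other probe set read 2.73 and 1.85 against 2.56 and 3.99 (0.99 ± 0.53, adjusted p = 0.269). On both E2f2 probe sets Cnot3KO replicate 2 was the highest array and Cnot3KO replicate 1 lay within the Control range. E2f3, which shares the control of S phase entry with E2f1, read 4.97 and 4.46 in Control, against 4.66 and 5.09 in Cnot3KO (0.16 ± 0.26, adjusted p = 0.702, 95% interval -0.48 to 0.81). Its other probe set gave 0.17 ± 0.18 (adjusted p = 0.560).

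The atypical repressors differed between themselves in how steady they were. E2f7 has 1 probe set, which read 3.03 and 3.24 in Control, against 3.72 and 4.24 in Cnot3KO. Both Cnot3KO livers were above both Control livers. The difference of 0.84 ± 0.23 was the next in size after Rbl1 and did not pass (adjusted p = 0.0726, 95% interval 0.26 to 1.42), and over the alternatives its adjusted p ran from 0.0552 to 0.300. E2f8 read 5.03 and 4.91 in Control, which is a narrow range, and 4.44 and 6.13 in Cnot3KO. One Cnot3KO liver was thus below and the other above both Control livers, and the difference was 0.31 ± 0.54 (adjusted p = 0.727, 95% interval -1.04 to 1.67). It was 1.16 (adjusted p = 0.0727) without Cnot3KO replicate 1, whereas leaving out Cnot3KO replicate 2 gave -0.53 (adjusted p = 0.325). The other E2f8 probe set lay at a mean percentile of 19.7 on the arrays, with values from 1.48 to 1.75.

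Foxm1 and Mybl2, the activators of mitotic genes, were among the members that differed least. The main Foxm1 probe set read 4.08 and 4.27 in Control, against 4.28 and 4.38 in Cnot3KO (0.16 ± 0.17, adjusted p = 0.571). Its 95% interval ran from -0.27 to 0.58. A further Foxm1 probe set gave 0.03 ± 0.18 (adjusted p = 0.923), and another read 2.86 and 3.29 against 3.69 and 3.88, a larger difference that did not pass (0.71 ± 0.21, adjusted p = 0.0862). The 3 probe sets therefore disagree in size, and which part of the transcript each one matches was not analysed here. Mybl2, which encodes B-Myb, read 2.20 and 2.25 in Control, against 2.31 and 2.29 in Cnot3KO (0.08 ± 0.16, adjusted p = 0.762), and its other probe set read 1.76 and 2.09 against 2.14 and 2.15 (0.22 ± 0.19, adjusted p = 0.460). Both Mybl2 probe sets were dim, at mean percentiles of 35.3 and 30.2 on the arrays, and no detection call was used.

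Partners of the members were counted too, where 12.2% of all genes were called higher and 4.64% lower. Of 5 other E2F and DP genes none was called by its main probe set (0 of 5, while limma gave 1 lower at an unadjusted p under 0.05). E2f4, the E2F of resting cells, read 4.17 and 4.35 in Control, against 3.74 and 3.84 in Cnot3KO (-0.47 ± 0.17, adjusted p = 0.133), and E2f5 was at -0.36 ± 0.18 (adjusted p = 0.238), with 2 other probe sets at 0.29 and 0.04. The main E2f6 probe set was at 0.02 ± 0.17, while its other probe set fell from 4.83 and 4.83 to 3.28 and 3.71 (-1.34 ± 0.20, adjusted p = 0.0176). The DP genes Tfdp1 and Tfdp2 were at -0.27 ± 0.21 and 0.48 ± 0.36 and did not pass. Of the 6 genes of the MuvB core and the Myb family that were above the filter level on at least 1 array of each group, 1 rose and none fell. The seventh gene of the list, Mybl1, which encodes A-Myb, a relative of Mybl2, gave 0.94 and 1.18 in Control and 4.47 and 4.53 in Cnot3KO. Both its Control values lay below the filter level of their arrays (1.64 and 1.69), so that it entered the test only through the Cnot3KO arrays. Against that level it was at least 7.12-fold higher, a bound that was not tested. Lin37, a core subunit needed for repression by DREAM, read 4.53 and 4.93 in Control, against 6.21 and 6.16 in Cnot3KO (1.46 ± 0.20, adjusted p = 0.0138). Of the whole list, Mybl1 included, 2 of 7 were called, and 1 of 7 without Cnot3KO replicate 1. Lin9, Lin52 and Lin54 were at 0.85 ± 0.51, -0.61 ± 0.29 and -0.16 ± 0.39, Myb was at 0.08 ± 0.21, and none passed. The main probe set of the histone chaperone Rbbp4 was at -0.49 ± 0.23 (adjusted p = 0.221), 1 other fell by -1.06 ± 0.20 (adjusted p = 0.0295) and the remaining 2 were at 0.77 and 0.50.

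Upstream of the pocket proteins, 4 of 16 measured genes of D cyclins, Cdks, Cdk inhibitors and other regulators of Cdk activity (Cdc25a, Cks1b, Skp2 and Fbxw7) rose and none fell, with a median of 0.75. Shares over all genes were 12.2% called higher and 4.64% lower. Cdc25a, the phosphatase that activates Cdk2, rose by 1.96 ± 0.26 (adjusted p = 0.0135), Ccnd3 by 1.24 ± 0.20 (adjusted p = 0.0207), Cks1b, an adaptor of Cdk complexes, by 0.92 ± 0.19 (adjusted p = 0.0353) and Cdk4 by 0.90 ± 0.17 (adjusted p = 0.0276). Ccnd1 and Ccnd2 were not called by their main probe sets (1.24 ± 0.35, adjusted p = 0.0770, and 0.60 ± 0.20, adjusted p = 0.117). Another probe set of each was called higher, at 1.25 ± 0.28 (adjusted p = 0.0469) for Ccnd1 and 1.08 ± 0.21 (adjusted p = 0.0317) for Ccnd2. No Cdk inhibitor gene was called, and Cdkn1a, which encodes p21, was at 2.75 ± 0.98 (adjusted p = 0.130), with Control values of 5.22 and 8.38 that lay far apart. Between 1 and 3 genes of the list were called when 1 array was left out, with 1 without Cnot3KO replicate 2, 2 without Control replicate 2 and 2 without Cnot3KO replicate 1.

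Genes downstream of the members were counted in the same way, beside the same 12.2% and 4.64% of all genes. All gene lists were written with earlier results of these data known, so the counts describe the lists and test nothing about them. Of 38 measured E2F target genes of G1/S, 20 rose and 1 fell, with a median of 1.58. Cdt1, the licensing factor, rose by 3.29 ± 0.74 (adjusted p = 0.0459), the chromatin remodeller gene Hells by 3.29 ± 0.44 (adjusted p = 0.0132), Brca1 by 3.18 ± 0.41 (adjusted p = 0.0121) and Uhrf1 by 2.93 ± 0.58 (adjusted p = 0.0326). The 1 that fell was Mcm10 (-2.91 ± 0.38, adjusted p = 0.0126), whose other probe set was at -0.43 and did not pass. Among further probe sets, 1 of Dut, the gene of dUTPase, fell (-1.41 ± 0.28, adjusted p = 0.0337), while its main probe set was at 0.52 ± 0.37 (adjusted p = 0.384). Another Fen1 probe set rose (2.10 ± 0.41, adjusted p = 0.0309), while the main one was at 0.44 ± 0.30 (adjusted p = 0.372). The count depended on single arrays and was 5 higher without Control replicate 1, 5 without Control replicate 2, 12 without Cnot3KO replicate 2 and 25 without Cnot3KO replicate 1. Cyclin E, the classical target that carries cells into S phase, was not called, with Ccne1 at 5.61 and 4.08 in Control and 5.58 and 6.89 in Cnot3KO (1.39 ± 0.63, adjusted p = 0.207) and Ccne2 at 0.91 ± 0.79 (adjusted p = 0.476).

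Of 33 measured target genes of Foxm1 and Mybl2 in G2/M, 27 rose and none fell, with a median of 2.19. Both Cnot3KO arrays lay above both Control arrays for 31 of the 33, where 34.8% of all genes did so. Aurka, Ttk and Bub1, kinases of the spindle and its checkpoint, rose by 3.48 ± 0.24, 3.30 ± 0.49 and 3.03 ± 0.28, and Cdc20, the activator of the anaphase-promoting complex, 7.99-fold with a 95% interval from 5.39-fold (adjusted p from 0.00422 to 0.0163). Without Control replicate 2 the count was 16, and without 1 of the other arrays it was 20 to 24. Of 10 cytokinesis genes, 7 rose and none fell, with a median of 1.78. Prc1 and Cep55, of the midzone and the midbody, rose by 2.95 ± 0.21 and 2.91 ± 0.24, Ect2, which activates RhoA at the furrow, by 2.75 ± 0.31, and the scaffold gene Anln by 2.69 ± 0.23 (adjusted p from 0.00422 to 0.00932). Cit and Mapre1 were not called by their main probe sets (-0.05 and 0.34). Other probe sets of Cit, at 0.97 and 1.36, and of Mapre1, at 0.77, were called higher (adjusted p from 0.0253 to 0.0368). Ect2, Kif23 and Iqgap1 of that list were named by the study as higher, on its arrays and by quantitative PCR. So were Cdc25a, Cdt1 and Brca1 above, Chek1 of the G1/S list and Cdc25b of the G2/M list. Cdc25b was not called here (0.70 ± 0.26, adjusted p = 0.135). The arrays of the study at 4 weeks are those read here, so the values here add no independent evidence of a direction to them. The quantitative PCR and the RNA sequencing of the study are other measurements and were not read here. The study also reported cell cycle genes in general as enriched among its upregulated genes, which touches the whole lists. Among genes with a promoter window, an E2F word stood in 15 of 33 G1/S genes (45.5%) and 1 of 28 G2/M genes (3.57%), and a CHR word in 5 of 33 (15.2%) and 20 of 28 (71.4%), with the shares of all genes at 2.60% and 21.7%.

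**Figure D3:**
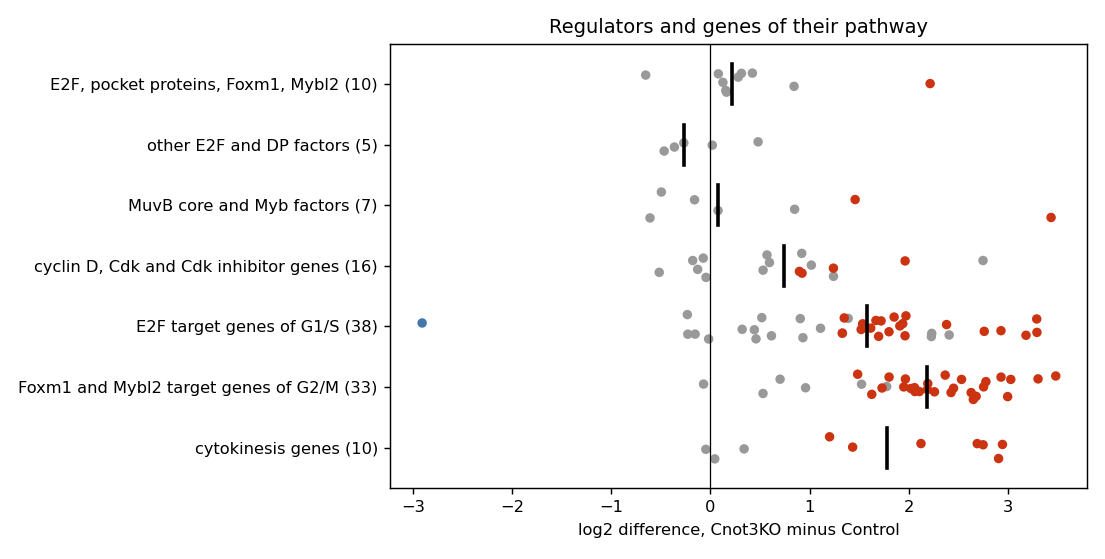
Each gene of 7 groups by its Cnot3KO minus Control log2 difference (x axis) (y axis, with how many were measured), red where called higher, blue where called lower and gray where not called, with black bars for medians. The E2F, pocket protein, Foxm1 and Mybl2 group has a median of 0.22, whereas the G1/S and G2/M target lists have medians of 1.58 and 2.19.

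The 2 Cnot3KO livers were not alike in the S phase genes, and the main probe sets of several members were also higher on replicate 2. E2f8 was 1.69 higher on Cnot3KO replicate 2 than on replicate 1, a difference reached by 33 of 16758 genes (0.197%). E2f2 was 1.02 higher, which 1.13% of genes reached. E2f7, Rbl1 and E2f3 were 0.52, 0.52 and 0.43 higher, which 5.44%, 5.53% and 8.13% of genes reached. These shares count genes that were higher on replicate 2 only. Over all genes, 198 were more than 2-fold higher on replicate 2 and 191 more than 2-fold lower. The other E2f2 probe set was 1.43 higher on replicate 2, whereas the other probe sets of E2f3 and E2f8 were 0.22 and 0.27 lower. E2f1, Rb1, Foxm1 and Mybl2 differed by 0.10 or less between the 2 livers, and Rbl2 was 0.22 lower on replicate 2. Of the G1/S target genes 37 of 38 (97.4%) and of the G2/M target genes 31 of 33 (93.9%) were higher on Cnot3KO replicate 2, while 48.2% of all genes were, with medians of 0.83 and 0.51. Cdc6, the licensing factor, which has this split in the extreme, read 2.81 and 5.54 in the Cnot3KO livers and 1.64 and 1.89 in Control (adjusted p = 0.127), and Ccne2 read 2.52 and 4.60 there. Both genes were singled out after their values were seen. In Control 10 of the 38 G1/S genes and 9 of the 33 G2/M genes were higher on replicate 2 than on replicate 1. For the G1/S list the median absolute difference between the 2 livers was 0.34 in Control and 0.83 in Cnot3KO. For the G2/M list it was 0.54 and 0.51. Among members, Control replicate 2 minus replicate 1 was 0.98 for Rbl1, -0.55 for E2f1, -0.53 for Rb1 and -0.52 for E2f3. Each was larger in size than in Cnot3KO, as for Foxm1 and Mybl2, while E2f2, E2f7, E2f8 and Rbl2 differed more in Cnot3KO. These are descriptions of 2 livers per group, with no test.

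**Figure D4:**
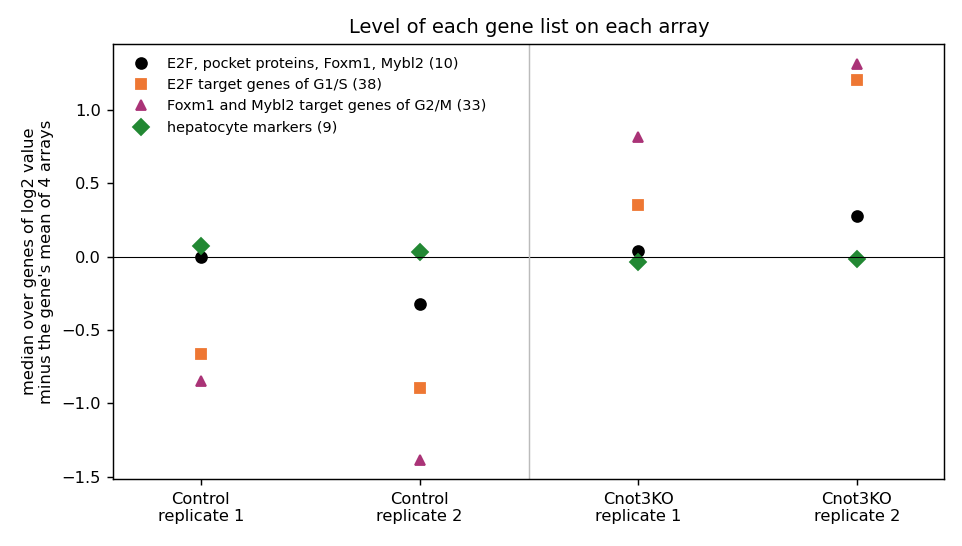
Median over the genes of a list of the log2 value minus the mean of that gene over the 4 arrays (y axis) on each array (x axis), for the E2F, pocket protein, Foxm1 and Mybl2 genes, the G1/S and G2/M target genes and hepatocyte markers. The G1/S list stands at 0.35 on Cnot3KO replicate 1 and 1.20 on Cnot3KO replicate 2, whereas the hepatocyte markers stay between -0.03 and 0.07.

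Markers of other cells that could carry cell cycle RNA differed between the groups too, where 12.2% of all genes were called higher and 4.64% lower. Of 13 macrophage and Kupffer cell markers 4 rose (Cd68, C1qb, Cd5l and C1qa), and the summed intensity of the list was 2704 to 2873 in Control and 4931 to 5556 in Cnot3KO. Of 6 cholangiocyte and progenitor markers 4 rose (Prom1, Epcam, Sox9 and Krt19), with sums of 47.5 to 57.1 and 703 to 901, and of 10 stellate cell and fibroblast markers 7 rose, with sums of 1842 to 2270 and 4473 to 5972. Of 8 erythroid markers 3 fell (Alas2, Car1 and Klf1), with sums of 763 to 982 and 528 to 1052. Of 8 neutrophil and myeloid precursor markers 2 rose (Ltf and S100a8) and 1 fell (Prtn3), with sums of 112 to 123 and 148 to 206. None of 10 lymphoid (0 of 10) and 10 sinusoidal endothelial (0 of 10) markers was called in limma, where 1 higher and 1 lower and 0 higher and 1 lower passed at an unadjusted p under 0.05, and their sums were 99.1 to 106 and 92.9 to 110 for lymphoid and 1023 to 1209 and 1123 to 1208 for endothelial markers. On Cnot3KO replicate 2, 0 of 6 cholangiocyte and 2 of 10 stellate cell markers were higher than on replicate 1. So were 9 of 13 macrophage, 6 of 8 erythroid, 5 of 9 hepatocyte and 6 of 10 lymphoid markers. Of endothelial markers 6 of 10 and of neutrophil markers 3 of 8 were, beside 48.2% of all genes. The part of these cells in the values of Rbl1 and of the target genes was not tested.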

How the data were processed

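RNA of 4 livers was measured on Affymetrix mouse genome expression arrays. The authors made probe set intensities with RMA (version not given in the sources used here) and deposited them as linear numbers that span 1.27 to 16933. These intensities were turned to log2 with no constant added. Probe sets above the 20th percentile of an array on at least 1 array were kept (38405 of 45037). The study's methods give a lower cut-off of 20% and do not say how it was applied to the arrays. Of all probe sets 34945 named 1 gene by the platform annotation, 932 several and 9160 none. Of those naming 1 gene, 34741 matched a RefSeq identifier. Groups were compared with limma 3.58.1 under R 4.3.3 (lmFit and eBayes, 2-sided, 5.40 total degrees of freedom), with Benjamini-Hochberg adjustment over the kept probe sets and a threshold of 0.05. Python 3.11.15 with pandas 2.3.3, numpy 2.4.6 and matplotlib 3.10.9 was used for tables, promoter searches and figures. The code of the fit was run on data simulated with noise from its own fitted prior, which cannot test whether that prior holds for these arrays. The number of arrays limits the precision. With 2 arrays per group an exact permutation test could not reach 0.05 and was not used.

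The members, lists and named genes were chosen with earlier results of these data known. Named were all members, Cnot3, up to 4 called genes of each list by size of difference, every gene of the E2F, DP, MuvB and Myb lists, and marker genes. Other probe sets, Ccne1, Ccne2, Cdc6 and some markers were named after their values were seen. Some genes of the lists were not analysed here, and each count is given over the genes that were measured. Alternatives were no filter, a filter at the 50th percentile, a further quantile normalization, array medians or 13 ribosomal protein genes as the centre, other priors, the replicate number as a block, no _x_at or _s_at probe sets, the methods' t-test, averaging the probe sets of a gene and each array left out.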

Additional observations from a re-analysis of the deposited data

How the results depend on the processing

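Precision was limited by the number of arrays, with 0.192 as the median SE over all log2 differences. Several member probe sets also had low signal. Of the member genes 1 was called higher, with 0 after adjustment of the methods' t-test and 0 at its unadjusted p, and 0 to 1 when 1 array was left out; counted as probe sets the values were also 0, 0 and 0 to 1. The call is that of Rbl1, which did not pass when Control replicate 1 or Cnot3KO replicate 2 was left out (differences from 1.73 to 2.71 over the arrays left out). None was called lower (0), but 1 gene, Rbl2, and 1 probe set were after quantile normalization again, and 1 gene and 2 probe sets at an unadjusted p in the methods' t-test. Directions turned for members that were never called: after quantile normalization again E2f3 was at -0.025 and Rb1 at -0.074, and with 1 array left out E2f2 ranged from -0.23 to 0.79, E2f3 from -0.10 to 0.42, Rb1 from -0.14 to 0.39 and E2f8 from -0.53 to 1.16. The adjusted methods' t-test called 0 genes in every pathway list, higher or lower. At its unadjusted p it called 10 G1/S target genes higher and 1 other E2F or DP gene lower. With 1 array left out, 5 to 25 G1/S genes were called higher and 0 to 1 lower, 16 to 24 G2/M genes higher, 1 to 3 MuvB and Myb genes, 1 to 3 cyclin D and Cdk genes and 5 to 6 cytokinesis genes. The MuvB and Myb count was 1 with a filter at the 50th percentile, which leaves out Mybl1. The replicate numbers pair the livers by number only (correlation of their deviations across probe sets 0.232). With the replicate number as a block Rbl1 stayed called (2.22, adjusted p = 0.0194), 17 G1/S genes and 21 G2/M genes were called higher, and no member gained or lost its call. In all other settings no count moved by more than 1.5 times. The median of all probe sets moved by 0.04 or less under each scaling. Single members moved more after quantile normalization again, such as E2f1 from 0.42 to 0.24 and Mybl2 from 0.08 to 0.19.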
